A study of Homo sapiens with 6 samples.

Results

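The genes described lie in and around band 9p21 of chromosome 9, where K562 cells are reported to have lost a segment. How far that segment reaches was not measured here. They are 9 protein-coding genes chosen by name: the cell cycle inhibitors CDKN2A and CDKN2B, the metabolic enzyme MTAP, the ubiquitin ligase adaptor KLHL9, the transcription factor DMRTA1, and the interferons IFNB1, IFNA1, IFNA8 and IFNE. Of the 9, 8 had a probe set carrying their symbol, 1 probe set each, among 17687 named genes and 21448 probe sets in all. No probe set carried the symbol IFNE, which was not analysed here. The samples were K562 cells, an established human erythroleukaemia line with the BCR-ABL1 fusion, in 2 groups of 3 arrays: cells with a vector that overexpresses the microRNA miR-543, and cells with a control vector. Total RNA was turned into biotin-labelled cDNA and read on single-colour arrays, which gave a log2 signal for each probe set. All 6 samples came from the same line. Nothing in the labels states that the replicates were separate cultures, and the p-values then reflect the spread among these arrays alone, which may be technical. DNA copy number was not measured, nor was the level of miR-543 analysed here.

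CDKN2A encodes a pair of unrelated proteins from different first exons. The p16 protein blocks the kinases CDK4 and CDK6 and so keeps the retinoblastoma protein active, and ARF protects p53 by binding MDM2. Its neighbour CDKN2B encodes p15, a close relative of p16. MTAP recycles methylthioadenosine, a by-product of polyamine synthesis, into methionine, and cells that have lost MTAP accumulate a metabolite that inhibits the arginine methyltransferase PRMT5. The type I interferon genes form a cluster on the other side of MTAP and are ordinarily silent until a cell senses a virus. Loss of the whole segment is common in leukaemia and in many solid tumours.

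The sequence of the overexpressed microRNA is shown because it defines the treated group. The capitals mark the seed, bases 2 to 8 from the 5′ end, through which a microRNA pairs with its targets (RefSeq, GRCh38.p14, chr14:101032033-101032054, plus strand).
hsa-miR-543: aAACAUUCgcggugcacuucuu

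The 9 genes differed in the CG content of their promoters, and 3 promoters are shown as examples. A window of 300 bases, from 250 before to 50 after the transcription start, was found for all 9 genes in RefSeq on GRCh38.p14, with 2 start sites for CDKN2A. CDKN2A had 28 and 26 CG dinucleotides in its 2 windows, CDKN2B had 25, KLHL9 had 19, DMRTA1 had 16 and MTAP had 15. Each lay above the median of 14 over 35116 windows. The interferon genes were poor in CG, with 2 for IFNE, 2 for IFNA1, 1 for IFNA8 and 1 for IFNB1. The first 2 sequences below have every CG in capitals. In the third the capitals mark matches to AANNGAAA, a core of sites for interferon regulatory factors, searched on both strands and allowed to overlap. This motif was found in 22.8% of all windows, and 2 or more matches, as in IFNB1 and IFNA1, in 5.66%. IFNA8 had 3 matches, a number reached by 1.25% of windows, and IFNE had 0. Of the other windows, 1 of the 2 of CDKN2A held 1 match, and those of CDKN2B, MTAP, KLHL9 and DMRTA1 held 0. A match is a description of the letters and not evidence of a bound site.
MTAP, chr9:21802386-21802685, plus strand: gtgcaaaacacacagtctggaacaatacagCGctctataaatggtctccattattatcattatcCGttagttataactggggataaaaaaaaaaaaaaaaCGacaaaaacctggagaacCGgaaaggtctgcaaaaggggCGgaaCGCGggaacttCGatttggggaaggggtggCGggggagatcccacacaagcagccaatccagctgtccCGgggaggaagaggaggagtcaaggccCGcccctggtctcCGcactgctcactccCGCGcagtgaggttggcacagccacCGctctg
CDKN2A start site of p16, chr9:21974808-21975107, minus strand: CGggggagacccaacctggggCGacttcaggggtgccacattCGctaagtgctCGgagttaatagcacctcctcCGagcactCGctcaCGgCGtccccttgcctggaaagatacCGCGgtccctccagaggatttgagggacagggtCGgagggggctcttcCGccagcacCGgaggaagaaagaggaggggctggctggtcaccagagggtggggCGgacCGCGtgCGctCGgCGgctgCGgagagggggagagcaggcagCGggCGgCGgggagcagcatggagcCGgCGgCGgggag
IFNB1, chr9:21077893-21078192, minus strand: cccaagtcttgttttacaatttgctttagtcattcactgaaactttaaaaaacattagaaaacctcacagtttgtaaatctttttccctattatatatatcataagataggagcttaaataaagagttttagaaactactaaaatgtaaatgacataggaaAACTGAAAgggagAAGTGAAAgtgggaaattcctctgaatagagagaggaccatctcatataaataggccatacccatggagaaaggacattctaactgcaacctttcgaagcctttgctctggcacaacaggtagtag

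The signals of the 9p21 genes lay low on every array. The floor used here is the lower quartile of each array, 3.98 to 4.03 over the 6 arrays, with medians of 5.99 to 6.01 and upper quartiles of 9.61 to 9.66. CDKN2A, KLHL9, DMRTA1, IFNB1 and IFNA1 were below the lower quartile on all 6 arrays, 5 of the 8 measured genes, as were 17.6% of all probe sets. All of these and also MTAP and IFNA8 were below the median on all 6 arrays, 7 of 8 genes, against 47% of all probe sets. CDKN2B lay at the median, and none of the 8 genes reached the upper quartile on any array. Probe sets differ in how strongly they bind and in their background, so a position on the array is not an amount of mRNA, and no detection call was used. In bulk RNA, fewer cells of a type and less RNA per cell cannot be told apart.

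**Figure D1:**
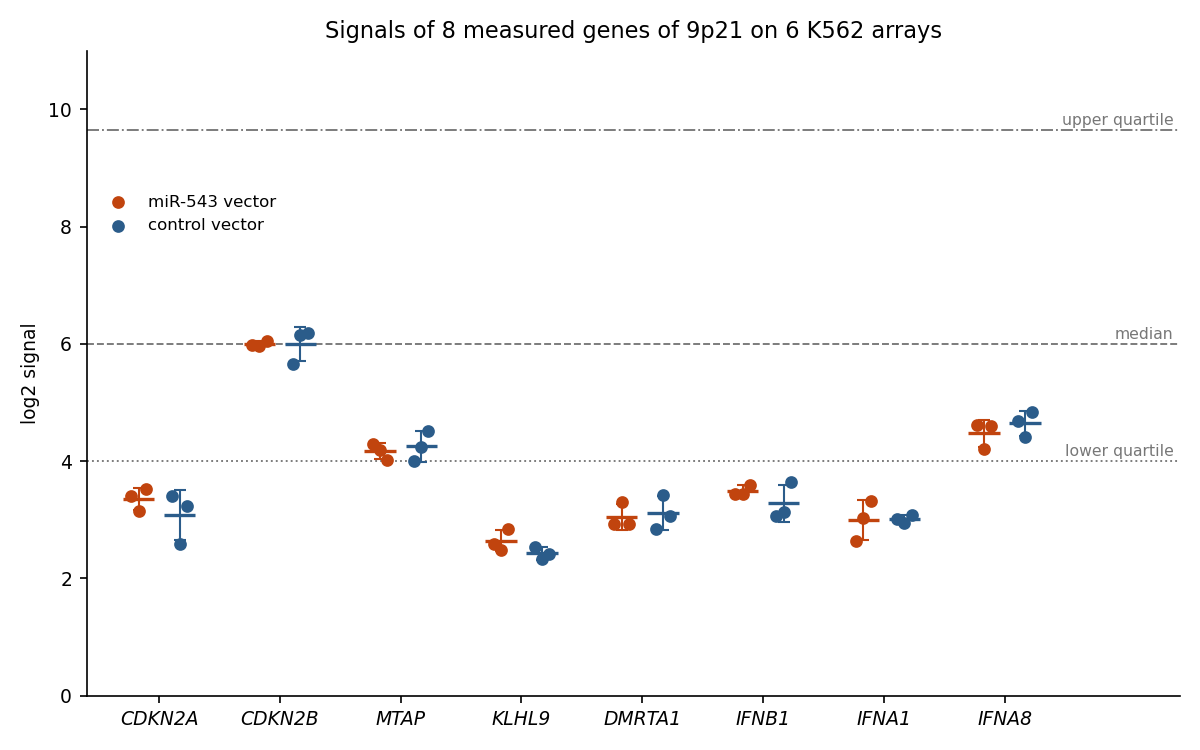
Log2 signal of each measured 9p21 gene on the 3 miR-543 arrays (left, orange) and the 3 control arrays (right, blue), with the group mean and SD and the mean lower quartile, median and upper quartile of the 6 arrays as grey lines. CDKN2B sits on the median line, MTAP and IFNA8 between the lower quartile and the median or on the lower quartile, and the other 5 genes below the lower quartile, with the 2 groups overlapping for every gene.

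CDKN2A (TC0900012219.hg.1) had signals of 3.41, 3.15 and 3.52 with the miR-543 vector, against 3.41, 2.59 and 3.24 with the control vector. The groups overlapped, and the low value of 2.59 came from control replicate 2. Over the 6 arrays between 0.42% and 13.7% of probe sets were dimmer than CDKN2A. The probe set is assigned to the gene CDKN2A, which encodes both p16 and ARF, and their transcripts were not separated here. CDKN2B (TC0900012220.hg.1) had 5.98, 5.96 and 6.05 with the miR-543 vector, against 5.66, 6.15 and 6.19 with the control vector. It was below the array median on 3 of the 6 arrays, with 47.4% to 51.4% of probe sets dimmer. The control arrays spanned the miR-543 arrays on both sides.

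MTAP (TC0900012115.hg.1), an enzyme that most cell types make, had signals of 4.29, 4.19 and 4.02 with the miR-543 vector and 4.0, 4.24 and 4.52 with the control vector. These values overlapped fully and were close to the lower quartile, with 24.8% to 34.1% of probe sets dimmer. KLHL9 (TC0900012218.hg.1), which guides the CUL3 ubiquitin ligase to Aurora B during mitosis, had 2.59, 2.49 and 2.84 with the miR-543 vector and 2.54, 2.33 and 2.41 with the control vector. It had the lowest mean of the 8 genes and at most 1.92% of probe sets were dimmer on any array. DMRTA1 (TC0900006815.hg.1), a DM-domain transcription factor, had 2.92, 3.30 and 2.93 with the miR-543 vector and 2.85, 3.42 and 3.06 with the control vector, and again the groups overlapped.

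IFNB1 (TC0900009688.hg.1), the interferon beta gene, had signals of 3.44, 3.44 and 3.60 with the miR-543 vector and 3.06, 3.14 and 3.64 with the control vector. The highest and the lowest of these values were both from control arrays. IFNA1 (TC0900012114.hg.1) had 2.63, 3.03 and 3.32 with the miR-543 vector and 3.02, 2.94 and 3.08 with the control vector. IFNA8 (TC0900012113.hg.1) had 4.61, 4.21 and 4.6 with the miR-543 vector and 4.68, 4.41 and 4.84 with the control vector, above the lower quartile on every array. The interferon alpha genes are close copies of each other, so their probe sets may share transcripts and their separate values are uncertain.

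Olfactory receptor genes, which are active in nasal neurons and seldom elsewhere, gave another view of the floor. The 348 measured receptor genes had a median mean signal of 3.52, and 95% of them had a mean under 5.22. Of these receptors 99.1% had a mean at or above that of KLHL9, 83.3% that of IFNA1, 79.3% that of DMRTA1, 70.7% that of CDKN2A and 57.8% that of IFNB1. MTAP and IFNA8 lay higher in this distribution, with 18.4% and 11.5% of receptors at or above them. CDKN2B stood near its top, with 8 of the 348 receptors (2.3%) at or above it. Whether the CDKN2B signal comes from CDKN2B mRNA was not tested.

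A low signal was less common among genes with a promoter window above the median CG count of 14. Of 10243 probe sets whose gene had a window with more than 14 CG dinucleotides, 10.2% were below the lower quartile on all 6 arrays, against 33.4% of 4024 probe sets of genes with 14 or fewer. CDKN2A, KLHL9 and DMRTA1 are in the class of the 10.2%, and IFNB1 and IFNA1 in that of the 33.4%. For the median in place of the lower quartile the shares were 30.2% and 76.5%, and MTAP was among the 30.2%. MTAP and DMRTA1 lie close to the boundary, since 48.9% and 47.5% of all windows have at least as many CG dinucleotides. The classes were chosen after seeing the data, and why any of these signals is low was not tested.

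Along the chromosome the 9p21 genes lay in 1 unbroken block of genes with means no higher than about the array median. At the floor used above, the lower quartile, the block was not unbroken. Between SLC24A2, a sodium, calcium and potassium exchanger, and CAAP1, an apoptosis regulator, 26 measured protein-coding genes followed each other in RefSeq order, and the mean signal of each was at or below 6.0, with a median of 3.69. They were 15 interferon genes and 11 others: MLLT3, FOCAD, HACD4, KLHL9, MTAP, CDKN2A, CDKN2B, DMRTA1, ELAVL2, IZUMO3 and TUSC1. Of the 26, 24 were below the array median on all 6 arrays (92.3%), and 12 were below the lower quartile on all 6 (46.2%). For the other 668 measured genes of chromosome 9 these shares were 42.1% and 17.2%. The exceptions at the median were CDKN2B and IFNW1, the interferon omega gene, which had 5.81, 5.62 and 6.25 with the miR-543 vector and 5.75, 6.31 and 6.13 with the control vector. The ends of the block and its ceiling were read off these data, so the shares are a description and carry no test.

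The genes next to the block on either side, SLC24A2 and CAAP1, were above the array median on all 6 arrays. On the SLC24A2 side, SLC24A2 itself averaged 9.39 ± 0.16 with the miR-543 vector and 8.87 ± 0.18 with the control vector (SD, n = 3 each). RPS6, a protein of the small ribosomal subunit, averaged 16.6 ± 0.025 with the miR-543 vector and 16.6 ± 0.047 with the control vector, and HAUS6, a subunit of the spindle complex augmin, 11.2 ± 0.057 with the miR-543 vector and 11.3 ± 0.22 with the control vector. ACER2, an alkaline ceramidase that lies between RPS6 and SLC24A2, was dimmer, with 5.91, 6.27 and 6.44 with the miR-543 vector and 6.26, 6.14 and 6.06 with the control vector, close to the level of CDKN2B and below the array median on 1 array. On the other side, CAAP1 averaged 10.2 ± 0.22 with the miR-543 vector and 10.4 ± 0.39 with the control vector, and PLAA, a ubiquitin-binding protein, 9.67 ± 0.18 with the miR-543 vector and 9.71 ± 0.25 with the control vector. Within the block MLLT3, a subunit of the super elongation complex, averaged 5.53 ± 0.10 with the miR-543 vector and 5.49 ± 0.10 with the control vector, under the median on every array. FOCAD averaged 3.73 ± 0.33 with the miR-543 vector and 3.52 ± 0.19 with the control vector, and the fatty acid elongation enzyme HACD4 2.82 ± 0.24 with the miR-543 vector and 2.98 ± 0.065 with the control vector. At the CAAP1 end ELAVL2, a neuronal RNA-binding protein, averaged 3.12 ± 0.085 with the miR-543 vector and 3.08 ± 0.20 with the control vector, and TUSC1 3.92 ± 0.051 with the miR-543 vector and 4.0 ± 0.29 with the control vector. Low signals were not confined to the block: beyond it ADAMTSL1, SAXO1, the endothelial receptor TEK, IFNK and LINGO2 also had means under 3.6.

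**Figure D2:**
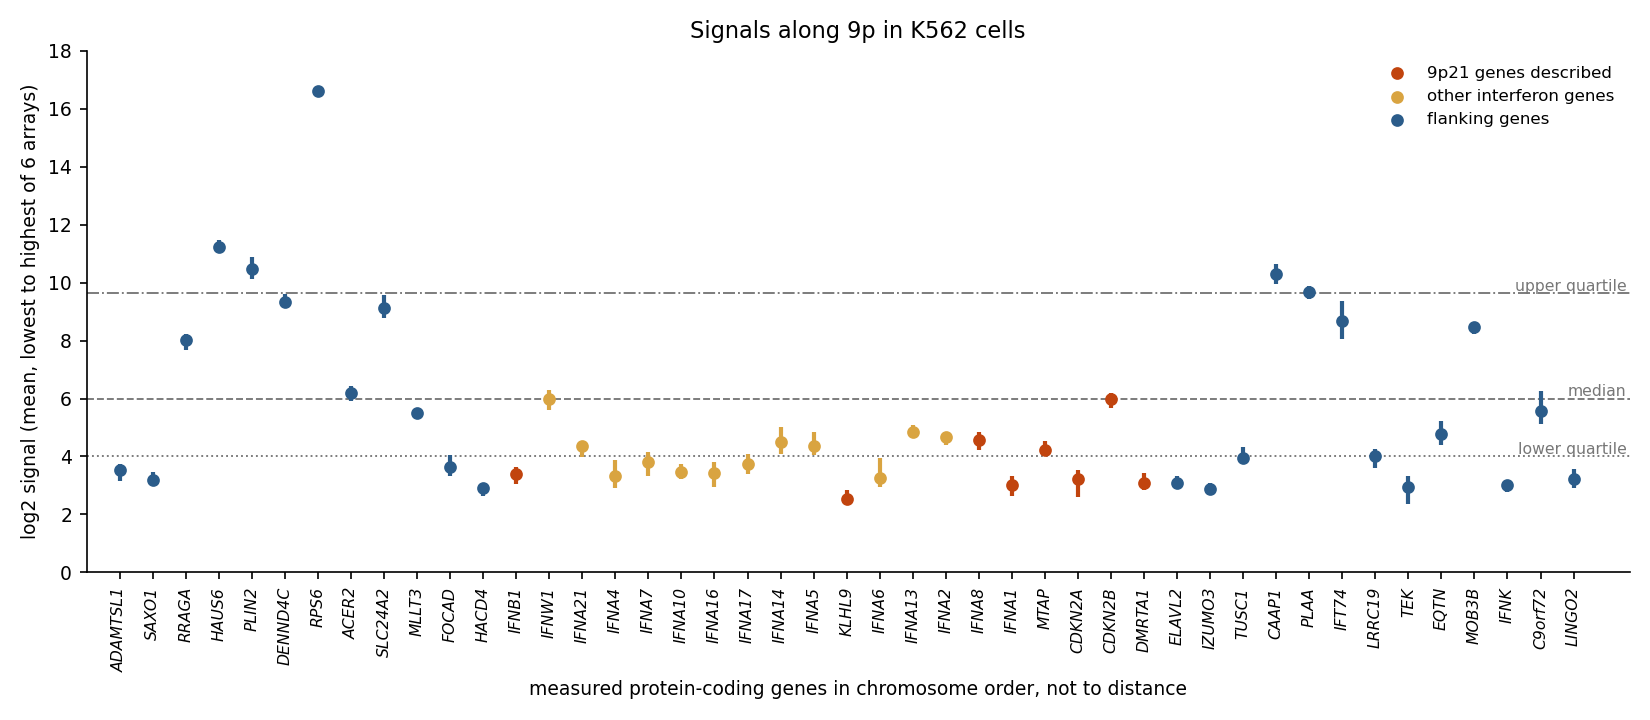
Log2 signal of measured protein-coding genes of 9p in chromosome order, evenly spaced rather than by distance, as the mean (point) and the lowest to highest of 6 arrays (bar). The 26 genes from MLLT3 to TUSC1 all have means at or below the median line, with SLC24A2 at 9.13 and CAAP1 at 10.3 on either side.

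Few unbroken runs of this length were found across the genome. The 17245 measured protein-coding genes formed 3601 runs of genes with means at or below the same ceiling of 6.0, and 6 of these, the 9p run included, were 26 genes or longer. The ceiling is the highest mean within the 9p run, so this count is a description and carries no test. The longest of the 6, 59 genes on chromosome 11, was mostly olfactory receptors (52 of 59), as was one of 31 genes on chromosome 1 (29 of 31). The others were 35 genes from GRIK1 to TIAM1 on chromosome 21, 27 from KRTAP4-11 to KRT13 on chromosome 17 and 27 from TMPRSS11E to JCHAIN on chromosome 4. The 9p run also holds a gene family, since 15 of its 26 genes are interferons, so its length alone says little about the other 11. Expression arrays cannot tell a deleted gene from a silent one, and these cannot be told apart here for any gene of the run.

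Between the vectors none of the 8 measured genes passed the test. In limma's test over all probe sets with Benjamini-Hochberg adjustment, 0 of 8 passed an adjusted p of 0.05, against 0.569% of all probe sets, and 0 of 8 had an unadjusted p under 0.05, against 10.6%. The groups overlapped for all 8, and did not overlap for 15.4% of all probe sets. Dim probe sets are a closer comparison. Of the 3772 probe sets below the lower quartile on every array, 0 were called and 181 had an unadjusted p under 0.05. For 10.2% of those 3772 the groups did not overlap. With 8 genes, counts of 0 say little. CDKN2A averaged 3.36 ± 0.19 with the miR-543 vector and 3.08 ± 0.43 with the control vector, a log2 change of 0.28 (SE 0.21, 95% interval -0.19 to 0.75, adjusted p = 0.706). This was the largest difference of the 8 and the least precise.

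CDKN2B averaged 6.0 ± 0.047 with the miR-543 vector and 6.0 ± 0.30 with the control vector (SD, n = 3 each), a log2 change of -0.0033 with an interval of -0.38 to 0.37. MTAP averaged 4.17 ± 0.14 with the miR-543 vector and 4.25 ± 0.26 with the control vector, a log2 change of -0.09 with an interval of -0.46 to 0.28. For KLHL9 the means were 2.64 ± 0.18 with the miR-543 vector and 2.43 ± 0.11 with the control vector, and the log2 change was 0.21 with an interval of -0.12 to 0.54. DMRTA1 averaged 3.05 ± 0.22 with the miR-543 vector and 3.11 ± 0.29 with the control vector, a log2 change of -0.06 (-0.47 to 0.35). No interval of the 8 reached a 2-fold difference in signal. For probe sets at the floor this limits the difference in signal and not a difference in mRNA.

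IFNB1 averaged 3.49 ± 0.092 with the miR-543 vector and 3.28 ± 0.31 with the control vector, a log2 change of 0.21 with an interval of -0.17 to 0.60. IFNA1 averaged 2.99 ± 0.35 with the miR-543 vector and 3.01 ± 0.070 with the control vector (log2 change -0.02, interval -0.42 to 0.38), and IFNA8 4.47 ± 0.23 with the miR-543 vector and 4.64 ± 0.22 with the control vector (log2 change -0.17, interval -0.55 to 0.21). Adjusted p-values of the 8 genes were 0.679 to 0.995. Over the 8 genes 3 differences were above 0 and 5 below, with a median of -0.01, beside a median of 0.01 over all probe sets. The mean signal of the 8 genes per array was 3.72 to 3.86 with the miR-543 vector and 3.65 to 3.87 with the control vector. Their median residual SD was 0.23, beside 0.19 for the 3772 probe sets below the lower quartile on every array.

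The rest of the block held no call either. None of the 12 other interferon genes of the cluster was called, with log2 changes from -0.33 for IFNA4 to 0.38 for IFNA6. Over all 26 genes of the block 0 were called, 0 had an unadjusted p under 0.05, and the groups overlapped for every gene. Over all probe sets 0.569% were called, 10.6% had an unadjusted p under 0.05, and the groups did not overlap for 15.4%. Among the 3772 probe sets below the lower quartile on every array, 0 were called and 181 had an unadjusted p under 0.05. The groups did not overlap for 10.2% of those 3772. Of 25 listed flanking genes, some of them within the block, 0 were called. Only 2 of the 25, IFT74 and SLC24A2, had an unadjusted p under 0.05. The groups did not overlap for 3 of the 25, these 2 and ADAMTSL1, 12% of the list. IFT74, a subunit of the intraflagellar transport complex, had signals of 8.41, 8.29 and 8.06 with the miR-543 vector, against 9.36, 8.95 and 8.92 with the control vector. All 3 miR-543 arrays were below all 3 control arrays, and the log2 change was -0.82 (SE 0.17, 95% interval -1.20 to -0.45) with an adjusted p of 0.0767, which did not pass. It passed in 2 of 11 alternative fits, with the trend and robust settings (adjusted p = 0.0253) and after the filter on low values (0.0315), in a range of 0.0253 to 0.295. SLC24A2 had 9.32, 9.28 and 9.58 with the miR-543 vector, against 8.77, 9.08 and 8.77 with the control vector, a log2 change of 0.52 (adjusted p = 0.264), and passed in 0 of 11.

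**Figure D3:**
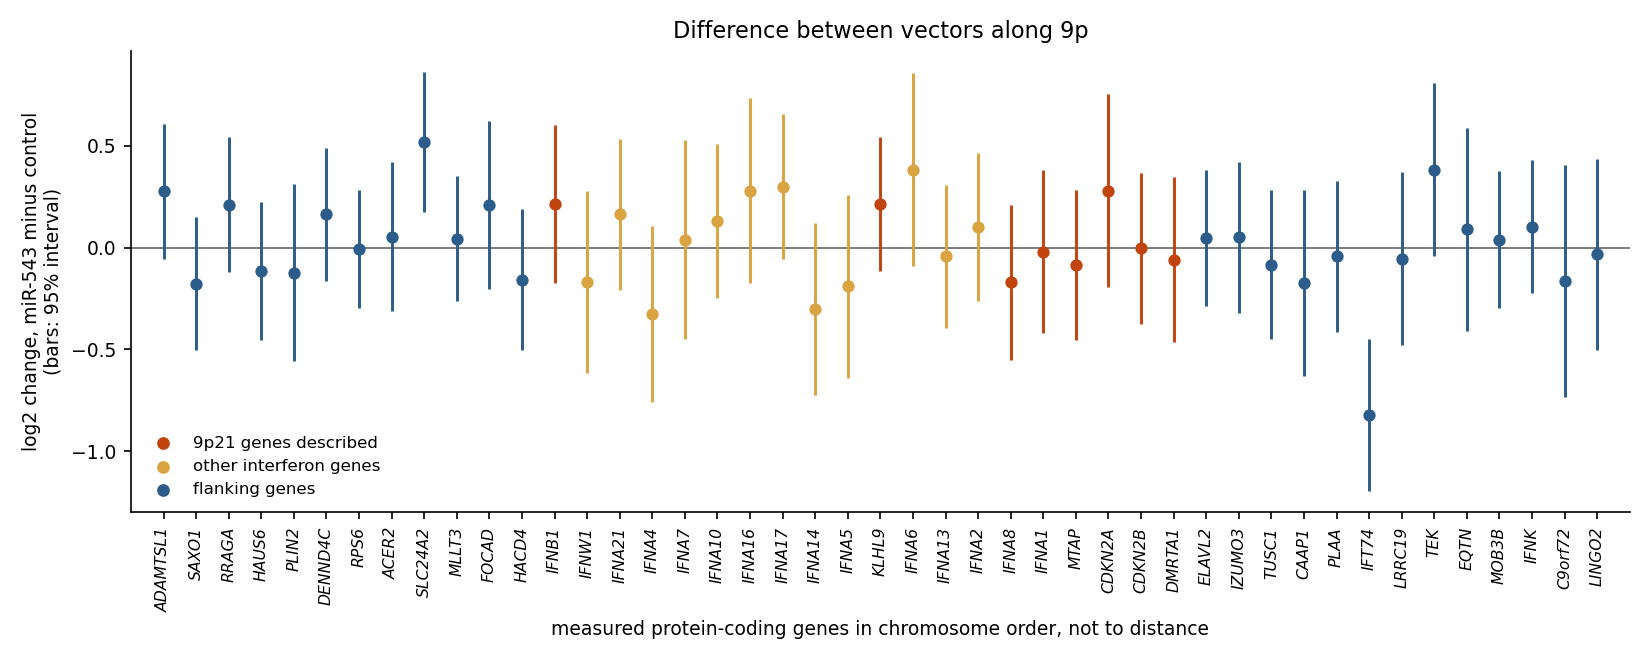
Log2 change, miR-543 vector minus control vector, with its 95% interval for measured protein-coding genes of 9p in chromosome order. The intervals of the 26 genes from MLLT3 to TUSC1 all include 0, while IFT74 at -0.82 and SLC24A2 at 0.52 have intervals that do not.

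Most partners of these proteins gave signals in the upper part of the arrays. Of 22 measured genes of the p16 and RB pathway 20 were above the array median on all 6 arrays. CDK4, the kinase that p16 inhibits, had signals of 13.38, 13.48 and 13.34 with the miR-543 vector and 13.08, 13.13 and 13.25 with the control vector. These did not overlap, yet the log2 change of 0.25 did not pass (adjusted p = 0.566). CDK6, the related kinase, had a log2 change of -0.40 and cyclin D1 (CCND1) one of -0.34, while the p19 inhibitor CDKN2D, another relative of p16, had one of 0.45 (adjusted p = 0.456, 0.474 and 0.515). None of the 22 passed in either direction, 1 had an unadjusted p under 0.05, and the median log2 change was -0.03.

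Around MTAP, 15 of 16 measured genes of methionine salvage, polyamine synthesis and PRMT5 were above the array median on all 6 arrays. The exception was MRI1, the salvage enzyme that acts directly after MTAP, with 5.73, 5.84 and 5.67 with the miR-543 vector and 5.72, 5.68 and 5.62 with the control vector. PRMT5 had 12.64, 12.80 and 12.41 with the miR-543 vector, against 13, 12.97 and 12.99 with the control vector. All 3 miR-543 arrays lay below the control arrays, with a log2 change of -0.37 and an adjusted p of 0.413. Its binding partners COPRS and RIOK1 had log2 changes of -0.43 and -0.36 (adjusted p = 0.365 and 0.438), and MAT2B, a subunit of the methionine adenosyltransferase, one of -0.31. Another PRMT5 partner, WDR77, had a log2 change of 0.24. None of the 16 passed and 3 had an unadjusted p under 0.05. The groups did not overlap for 6 of the 16, 37.5% beside 15.4% of all probe sets, and the median change was -0.05.

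The receptor for type I interferons was above the upper quartile on every array. IFNAR1 and IFNAR2, its 2 chains, had signals of 11.24, 11.19 and 11.10, and of 13.14, 12.94 and 12.97, with the miR-543 vector. With the control vector they had 11.43, 10.94 and 11.13, and 13.30, 13.02 and 12.98, and the groups overlapped for both. Of 11 measured genes of interferon receptors, signalling and other interferons, 5 were above the median on every array and 5 below it on every array, and 0 passed. IRF9, the DNA-binding part of the factor that type I interferons activate, had a log2 change of 0.36 and IRF3 one of -0.34 (adjusted p = 0.488 and 0.549). Of 5 genes of the KLHL9 ligase 0 passed, and KLHL13, the partner of KLHL9, had a log2 change of -0.50 (adjusted p = 0.365). All 6 measured relatives of DMRTA1 in the DMRT family were below the median on all 6 arrays, and 0 passed, with 0.49 for DMRT3.

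**Figure D4:**
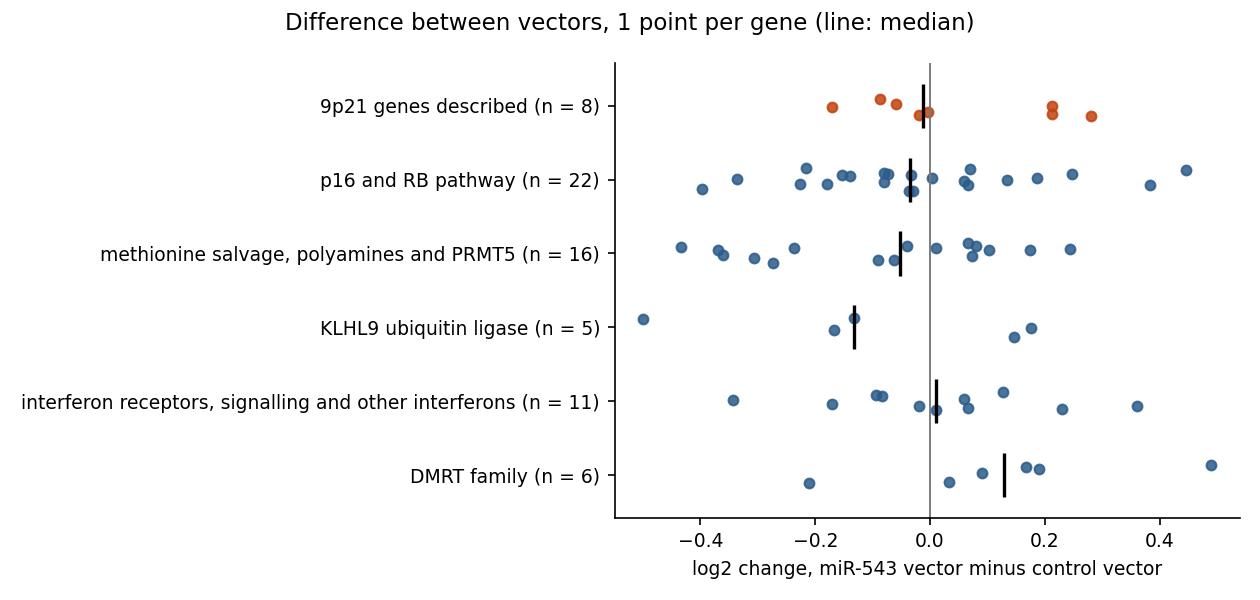
Log2 change, miR-543 vector minus control vector, 1 point per gene, for the measured 9p21 genes and 5 lists of their partners and relatives, with a vertical line at each median. All points lie between -0.50 and 0.49, and none of these genes passed the test over all probe sets.

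The arrays carried the identity of the line. All 6 measured erythroid markers of K562 were above the array median on every array, and 0 passed between the vectors. The groups did not overlap for 2 of the 6, the transcription factors KLF1 (log2 change 0.66, adjusted p = 0.106) and TAL1 (0.41, adjusted p = 0.371). Over all probe sets they did not overlap for 15.4%. With 5 or 6 genes per marker list, such counts here and below say little about the lists. The mean signal of the erythroid list per array was 13.193 to 13.313 with the miR-543 vector and 13.005 to 13.065 with the control vector, without overlap. Of markers of other cells 3 of 6 lymphoid, 2 of 6 monocyte, 4 of 5 fibroblast and 4 of 6 epithelial genes were below the median on all 6 arrays. Those above it on all 6 arrays were 3, 2, 1 and 2, and 0 of these markers passed between the vectors. The groups did not overlap for 2 lymphoid markers, CD3D (log2 change 0.64, adjusted p = 0.184) and PTPRC (-0.34, adjusted p = 0.429), for 1 fibroblast marker, LUM (0.32, adjusted p = 0.48), and for 1 epithelial marker, KRT19 (-0.15, adjusted p = 0.753). Their mean signal per array with the miR-543 vector was 6.93 to 7.19 for lymphoid, 6.96 to 7.14 for monocyte, 5.46 to 5.50 for fibroblast and 6.54 to 6.60 for epithelial genes. With the control vector it was 6.90 to 7.01, 6.83 to 6.98, 5.02 to 5.37 and 6.54 to 6.72. The fibroblast ranges of the vectors also did not overlap, while the lymphoid, monocyte and epithelial ranges did. The part of any of these lists in the 9p21 signals was not tested.

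The signals closest in pattern to CDKN2B, the 9p21 gene with the highest mean, came from genes that were themselves dim. Over the 6 arrays, which share processing, the highest Pearson correlations among 17686 named genes were 0.993 for SPAG1, 0.983 for GUCY2C and 0.983 for ZNF475, with mean signals of 3.99, 3.87 and 4.66. With this many genes and 6 arrays these values describe the arrays and carry no test.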

How the data were processed

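The deposited table holds log2 signals per probe set, to 2 decimals, which the authors made with Transcriptome Analysis Console 4.0 and RMA, per the submitters' processing notes. RMA corrects background, normalizes between arrays and summarises probes, so small differences at low signal are compressed. The RMA variant and genome build are not given in the sources used here. Symbols came from the platform annotation: 17709 of 21448 probe sets had 1 symbol, 0 several and 3739 none, and 17705 matched RefSeq genes of GRCh38.p14. RefSeq was used for names, gene order, the choice of protein-coding genes and the promoter windows. Of the named probe sets, 3442 had no promoter window and were left out of the CG classes. Groups came from sample titles. limma 3.58.1 in R 4.3.3 (lmFit, eBayes) was fitted to all probe sets without filter or block, and was tested on simulated data. SDs are over 3 arrays, whose number limits the precision. A gene with several probe sets was read from the one with the highest mean. Named genes were the members, 9p neighbours, up to 4 genes of each other list by smallest p, and the 3 most correlated with the brightest member. IFNAR1, IFNAR2, WDR77 and MRI1 were chosen after their values were seen. Members and lists were chosen with earlier results of these data known. The block from MLLT3 to TUSC1, the olfactory percentages and the promoter classes were chosen after seeing the data. Alternatives were other variance models, filters, scalings, a replicate block and leaving out each array.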

Additional observations from a re-analysis of the deposited data

How the results depend on the processing

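In all 11 alternative fits 0 of the 9p21 genes passed, with adjusted p-values no smaller than 0.376, although the filter on low values kept only 1 of the 8 genes, CDKN2B. Signs near 0 were not stable: leaving out 1 array at a time gave log2 changes of 0.035 to 0.445 for CDKN2A, -0.17 to 0.0917 for CDKN2B, -0.21 to 0.0467 for MTAP, 0.11 to 0.29 for KLHL9, -0.19 to 0.095 for DMRTA1, 0.10 to 0.39 for IFNB1, -0.18 to 0.16 for IFNA1 and -0.29 to -0.04 for IFNA8. The number of calls over all probe sets, 122, was 252 with the trend and robust settings, 71 with the replicate number as a block, and 34 (without control replicate 1) to 59 when 1 array was left out. Deviations of same-numbered arrays from their group means were weakly correlated (r = 0.09, -0.05 and 0.02). Differently numbered arrays gave r of -0.094 to 0.066. With 3 arrays per group these values cannot show whether the numbers are pairs. The main fit did not take the numbers as pairs, and the replicate block gave 0 calls among the 9p21 genes. The count below the floor depends on the floor: with the lower quartile of olfactory receptors 1 of 8 genes was below it on every array in place of 5, and with their median 4 in place of 7. Under the other alternatives the first count was 5 throughout and the second 7, or 8 with the median taken over named probe sets. Signal over background was not tested, which limits what any of the low values can show.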
